A study of Homo sapiens with 519 samples.

Results

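Cytosolic and mitochondrial chaperones were examined as a set of 43 genes in the neuroblastoma line SK-N-BE(2), an established human cell line with an amplified MYCN gene that the labels call neuroblast. The members were taken by symbol from a list: 16 genes whose transcripts are known to be induced by protein-folding stress (HSPA1A, HSPA1B, HSPH1, HSPB1, HSPB8, CRYAB, several J-domain proteins, BAG3 and others), 21 that are mostly constitutive (HSPA8, HSP90AB1, HSPA4, the CCT subunits, several co-chaperones and others), 4 of mitochondria (HSPD1, HSPE1, HSPA9, TRAP1) and the 2 regulators HSF1 and HSF2. All 43 are rows of each of the 4 count tables, which hold 25392, 57728, 25559 and 44267 genes. The rule for membership is a list of symbols, but the members were chosen with earlier results of these data known. The list is therefore not independent of the data. All 519 libraries come from this 1 line, seeded in multiwell plates and given compounds in 0.1% DMSO, with DMSO wells or wells labelled Control as the reference.

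The groups compared in detail here were these. In the third experiment cells were treated for 24 h, with 3 libraries a treatment and 9 of DMSO: pomiferin at 1, 3.3 and 10, isopomiferin at 1, 5 and 15, Osajin (13O), H-Pomiferin (12P), H-Osajin (12O) and Pom Triacetate at 10, and Isoosajin and Osajin 4 Methyl ether at 20, with no unit in the labels. A TruSeq experiment had 3 libraries a group of pomiferin and isopomiferin at 3 and 10 µM, of a compound labelled Null at 10 µM and of DMSO, each at 3 and 6 h. The second experiment had 3 libraries a group of NSC255109 at 0.85 and 2.5 and of isopomiferin at 3.3 and 10 (mM as labelled), with 6 Control libraries, each at 6 and 24 h. From the first experiment came NSC255109 at 7.5 and isopomiferin at 15 (no unit given) after 24 h, with 8 DMSO libraries. Each treatment had 2 libraries, 1 with a title ending in R1 and 1 in R2. These endings were taken as plate 1 and plate 2, which is an inference from the titles. The first 3 experiments used PLATE-seq, a pooled 3′-end RNA method for multiwell plates. Pomiferin and osajin are prenylated isoflavones of the Osage orange: osajin lacks a B-ring hydroxyl group that pomiferin carries, and in isopomiferin a prenyl group of pomiferin is closed onto the neighbouring hydroxyl. No source used here says that the replicates came from separate cultures, so the tests measure the spread between these libraries, which may be technical.

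Chaperones bind unfolded stretches of other proteins. HSP70 proteins (HSPA1A, HSPA1B and HSPA8 in the cytosol, HSPA9 in mitochondria) work in cycles of ATP binding: J-domain proteins such as DNAJB1 deliver the client and trigger ATP hydrolysis, and exchange factors such as BAG3 and HSPH1 release it. HSP90AA1 and HSP90AB1 act later on kinases and receptors with co-chaperones such as STIP1, AHSA1 and CHORDC1, the CCT ring folds actin and tubulin, and HSPD1 with its lid HSPE1 forms the folding chamber of mitochondria. When unfolded proteins accumulate, HSP70 and HSP90 leave the transcription factor HSF1, which then binds arrays of inverted nGAAn units (heat shock elements) near the inducible genes.

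The letters of such elements can be seen in the promoters of members on which the results turn. The 250 bases before the transcription start are given 5′ to 3′ on the strand of the gene (RefSeq, GRCh38.p14), with matches to a pair of opposed units (GAANNTTC or TTCNNGAA) or to a run of 3 (GAANNTTCNNGAA or TTCNNGAANNTTC) in capitals. Both patterns of each length were searched, which covers both strands, and a run of 3 contains pairs. HSPA1A (chr6:31815293-31815542, plus strand), the member that rose most, and DNAJB1 (chr19:14518398-14518647, minus strand), its J-domain partner, are shown first. Then come HSPA8 (chr11:123062137-123062386, minus strand), a constitutive member, CHORDC1 (chr11:90223050-90223299, minus strand), with the longest run, and 1 of 2 annotated starts of HSPD1 (chr2:197499841-197500090, minus strand), a mitochondrial member.
HSPA1A: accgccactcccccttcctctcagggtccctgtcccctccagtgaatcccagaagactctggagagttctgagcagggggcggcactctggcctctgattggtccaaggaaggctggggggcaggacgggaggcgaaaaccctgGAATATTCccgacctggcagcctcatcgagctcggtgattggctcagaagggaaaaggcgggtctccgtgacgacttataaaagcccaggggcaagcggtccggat
DNAJB1: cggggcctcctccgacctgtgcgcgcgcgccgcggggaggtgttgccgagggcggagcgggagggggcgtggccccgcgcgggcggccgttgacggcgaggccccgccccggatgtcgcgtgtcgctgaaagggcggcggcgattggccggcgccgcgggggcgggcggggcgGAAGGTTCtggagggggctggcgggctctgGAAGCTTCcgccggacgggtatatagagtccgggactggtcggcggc
HSPA8: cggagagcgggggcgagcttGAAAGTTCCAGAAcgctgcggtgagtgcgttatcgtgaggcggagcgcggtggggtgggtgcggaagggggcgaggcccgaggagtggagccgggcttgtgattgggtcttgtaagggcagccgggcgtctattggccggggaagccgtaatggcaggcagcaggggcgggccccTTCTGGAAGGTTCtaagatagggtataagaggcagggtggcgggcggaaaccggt
CHORDC1: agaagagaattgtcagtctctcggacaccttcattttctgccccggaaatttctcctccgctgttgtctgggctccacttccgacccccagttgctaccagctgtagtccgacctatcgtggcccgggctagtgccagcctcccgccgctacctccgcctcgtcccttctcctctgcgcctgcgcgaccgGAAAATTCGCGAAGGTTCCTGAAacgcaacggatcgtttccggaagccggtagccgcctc
HSPD1: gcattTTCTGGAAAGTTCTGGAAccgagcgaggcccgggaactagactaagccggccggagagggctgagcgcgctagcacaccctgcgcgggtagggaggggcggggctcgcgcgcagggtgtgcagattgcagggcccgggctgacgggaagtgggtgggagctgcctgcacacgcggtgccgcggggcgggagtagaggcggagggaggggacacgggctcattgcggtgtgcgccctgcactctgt
Matches were counted in the RefSeq promoter table over 300 bases, 250 before and 50 after the start, where 38 of the 43 members had an entry. A pair was found in 12 of 15 inducible members, in 7 of 18 constitutive members and in 2 of 4 mitochondrial members, against 16.2% of 27305 genes in the table. A run of 3 was found in 7 of the 38 members and in 0.608% of all genes. The windows at the starts of BAG3 and HSPE1 held neither. These letters describe the sequence and not binding.

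Library totals ran from 17209306 to 33280770 counts in the TruSeq experiment, from 706208 to 5263249 in the third, from 608491 to 1901416 in the second and from 38670 to 3958909 in the first. Levels are counts scaled to a common library total (CPM) and are compared only between libraries for 1 gene. Changes are log2 ratios with their standard errors from edgeR's quasi-likelihood test with Benjamini-Hochberg adjustment over all genes tested, and "rose" or "fell" means an adjusted p under 0.05. HSPA1A and HSPA1B lie side by side on chromosome 6 (31815543 to 31817942 and 31827738 to 31830254). Their coding sequences are 99.8% identical, so most reads from the coding part cannot be assigned to 1 of them. The parts after the stop codon, of 264 bases in HSPA1A and 379 in HSPA1B, differ more, with an edit distance of 176. How many reads of each experiment fell in either part was not counted. Of the labelled cell type, MYCN, PHOX2A, GATA3 and STMN2 were detected, and KRT5 and ALB, markers of epithelium and liver, were listed at 0 in the DMSO libraries of the third experiment. The summed level of the 8 neuroblast markers was 2448 to 3153 CPM in DMSO, 674.5 to 889.4 with pomiferin at 10, 898.1 to 1174 with osajin and 1198 to 1429 with isopomiferin at 15. For markers of other cell types the sum was 195.3 to 298.9 CPM in DMSO, 112.9 to 119.4, 100 to 113.9 and 132 to 138.2 with these treatments, and without COL1A1, which fell with each of them, 0.986 to 10.12 CPM in DMSO and 8.86 to 18.79 with osajin, where the glial marker GFAP rose (2.17). The part that these shifts play in the chaperone results was not tested, and in bulk RNA fewer cells of a kind and less RNA per cell cannot be told apart.

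Pomiferin at 10 in the third experiment raised the inducible chaperones together. After 24 h, 23 of the 43 members rose and 4 fell, where 31.5% of all genes changed, and the median change was 0.59 over the members and -0.05 over all genes. Of the 16 inducible members 13 rose and none fell (median 1.82), of the 21 constitutive members 8 rose and 2 fell (median 0.33), and of the 4 mitochondrial members 2 rose and 2 fell. HSPA1A, the stress-inducible HSP70, stood at 14.7 CPM in the lowest, 20.4 in the median and 31.7 in the highest of the 9 DMSO libraries, and at 1573, 1655 and 2161 CPM in the 3 pomiferin libraries. The groups lie far apart, and the change was 6.31 ± 0.25 (adjusted p = 2.2e-34). With the counts of HSPA1A and HSPA1B added before the fit, the change was 4.45 (adjusted p = 5.75e-15), since HSPA1B was at 38.7 to 190 CPM in DMSO and at 343, 362 and 372 with pomiferin (2.23 ± 0.51). DNAJB1, which delivers clients to HSP70, went from 41.4, 50.2 and 59.8 CPM (lowest, median and highest of DMSO) to 975.4, 1068 and 1543 CPM, a change of 4.58 ± 0.15. BAG3, the exchange factor that also links HSP70 to autophagy, went from 4.23 to 9.39 CPM in DMSO to 60.5, 81.5 and 100 CPM (3.61 ± 0.26). HSPB8, a small heat shock protein and partner of BAG3, rose by 3.48 ± 0.50 from levels of at most 0.986 CPM.

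The constitutive HSP70 and the HSP90 genes rose less than HSPA1A. HSPA8, the constitutive HSP70, was at 960, 1061 and 1276 CPM in the lowest, median and highest DMSO library and at 3736, 4429 and 4866 CPM with pomiferin at 10, a rise of 2.02 ± 0.12 (adjusted p = 1.1e-24). HSPH1, an exchange factor of the HSP110 type, rose by 2.54 ± 0.16. HSP90AA1, the inducible HSP90, was at 2857, 3895 and 5244 CPM against 600.5 to 1227 in DMSO (2.01 ± 0.22), and HSP90AB1, its constitutive twin, at 1987, 1994 and 2156 CPM against 787 to 1096 (1.16 ± 0.13). By role, 6 of 7 HSP70 family members rose, 5 of 8 J-domain proteins, 4 of 7 HSP90 co-chaperones, 2 of 3 small heat shock proteins and 1 of 7 CCT subunits. In this comparison 31.5% of all genes changed, and the CCT subunits, with 1 rise and 1 fall, do not stand out from that share. BAG1, an exchange factor, fell by 1.03, a call lost without pomiferin replicate 1 (-0.86) or 3 (-0.94), and the subunit CCT7 fell by 0.67. HSF1, the regulator, was at 2.62 to 10.8 CPM in DMSO and its change of 0.57 ± 0.34 missed the threshold (adjusted p = 0.22).

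**Figure D1:**
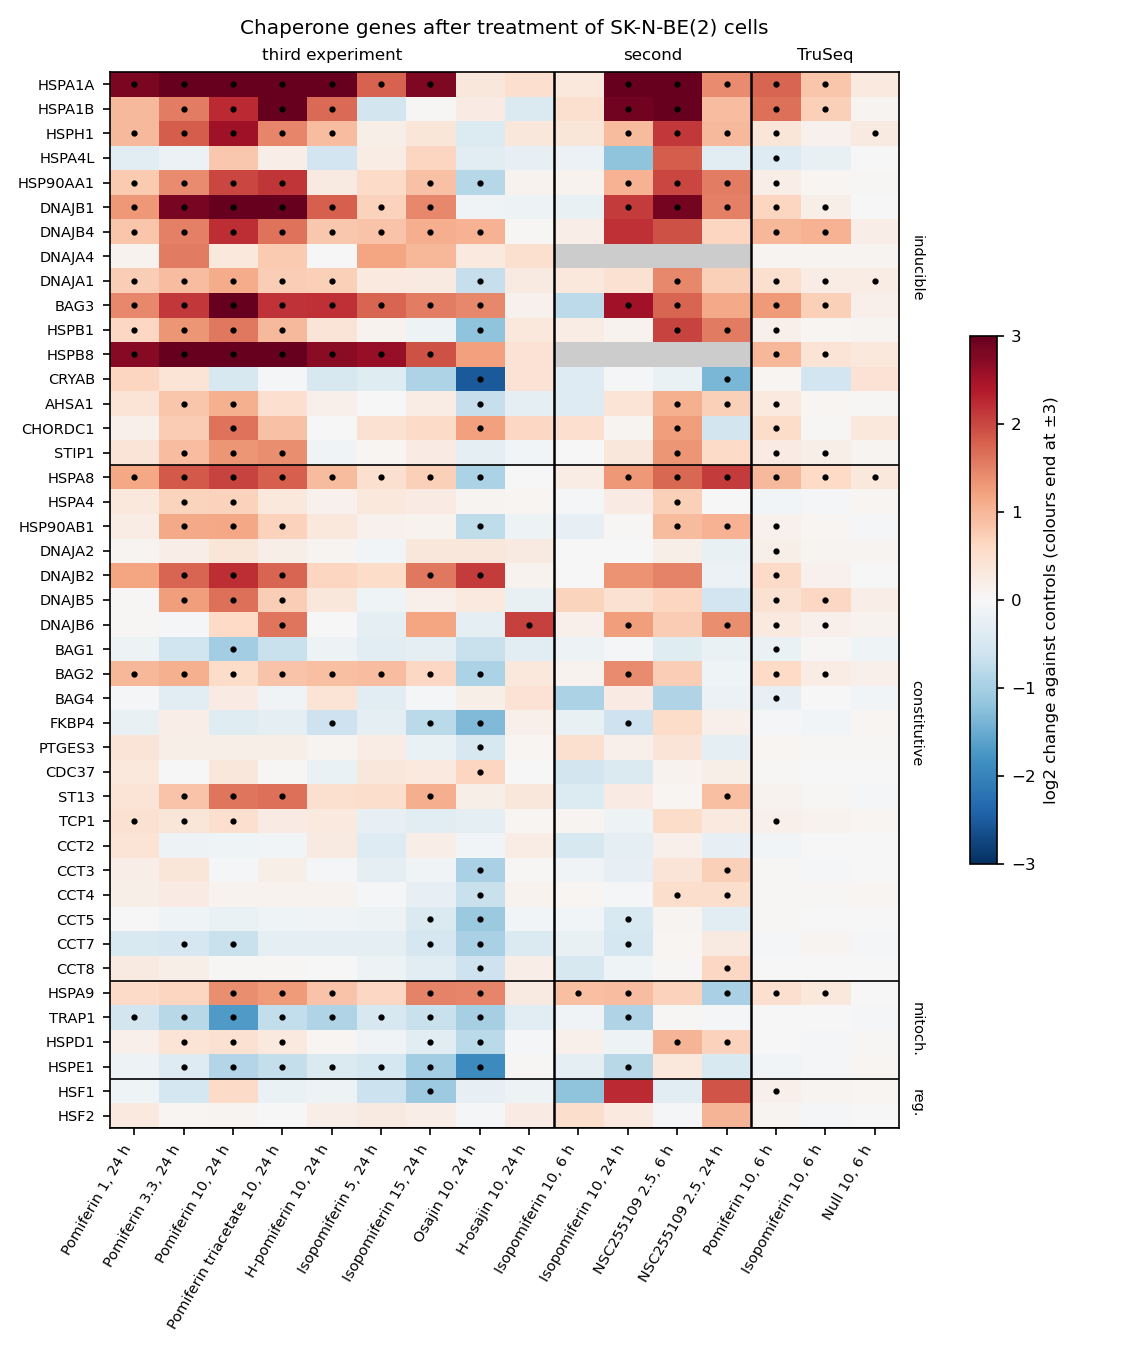
Log2 change of each of the 43 chaperone genes (rows, grouped by class) against the control of the same experiment and time for 16 treatments (columns), with colours ending at ±3, dots for an adjusted p under 0.05 and grey for genes under the filter on low counts. The column of pomiferin at 10 in the third experiment is red over most of the inducible rows, and that of osajin at 10 is blue over most of the constitutive and mitochondrial rows.

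Osajin at the same dose gave another pattern. In the third experiment 6 members rose and 18 fell, where 25.8% of all genes changed. The median was -0.18 for inducible, -0.48 for constitutive and -0.90 for mitochondrial members, against -0.01 for all genes. HSPA1A was at 15.5, 26.7 and 45.9 CPM, overlapping the DMSO range, with a change of 0.34 ± 0.30 (adjusted p = 0.45). DNAJB1, at 41.5, 46.1 and 52.5 CPM, also lay within the DMSO range. HSPA8 was at 437, 572 and 653 CPM, below every DMSO library, and fell by 0.95. HSP90AA1 fell by 0.86 (-0.74 without osajin replicate 3, where the call was lost), HSP90AB1 by 0.77 and HSPB1, a small heat shock protein, by 1.2. CRYAB, another small heat shock protein, went from 14.2 to 32.5 CPM in DMSO to 2.76, 3.69 and 4.19 CPM and fell by 2.53. Of the 7 CCT subunits 5 fell and none rose (median -0.68), and FKBP4, an HSP90 co-chaperone with a prolyl isomerase domain, fell by 1.33. BAG3 was among the members that rose, from 4.23 to 9.39 CPM in DMSO to 11.1, 18.5 and 23.2 CPM (1.44 ± 0.32), as did DNAJB2 (2.1 ± 0.40), a J-domain protein of neurons, DNAJB4 (1.05) and CDC37 (0.65), the kinase co-chaperone of HSP90. The CDC37 call was lost without osajin replicate 2 (0.58) or 3 (0.54). CHORDC1 had a rise of 1.22 ± 0.38 that rests on 1 library, with 15.5, 128 and 22.1 CPM in the 3, and its change was -0.40 (adjusted p = 0.647) without osajin replicate 2. The osajin libraries held 1573316 to 2435952 counts and the pomiferin libraries 2076838 to 2535241, against 2775143 to 5263249 in DMSO. The part of depth was not tested.

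Set against each other directly, pomiferin at 10 was above osajin at 10 for 26 of the 43 members and below for 1, where 6.76% of all genes differed. The median difference was 2.02 for inducible, 0.77 for constitutive and 0.47 for mitochondrial members, and -0.02 for all genes. HSPA1A differed by 5.97 (95% interval 5.19 to 6.75), HSPA8 by 2.97 (2.63 to 3.31), DNAJB1 by 4.68, HSPH1 by 2.94, HSP90AA1 by 2.87, HSPB1 by 2.78, BAG3 by 2.17 and HSP90AB1 by 1.92. All 3 small heat shock proteins, both chaperonin genes and 5 of the 7 CCT subunits were higher with pomiferin. Against DMSO, 1 CCT subunit rose and 1 fell with pomiferin, while 5 fell with osajin. HSPA1B (1.98 ± 0.71, adjusted p = 0.079) did not pass. TRAP1, the mitochondrial HSP90, was the 1 member lower with pomiferin (-0.70, adjusted p = 0.014), a call lost without pomiferin replicate 3 (-0.59) or osajin replicate 2 (-0.58), without the filter (-0.71) and with only the groups compared (-0.74).

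**Figure D2:**
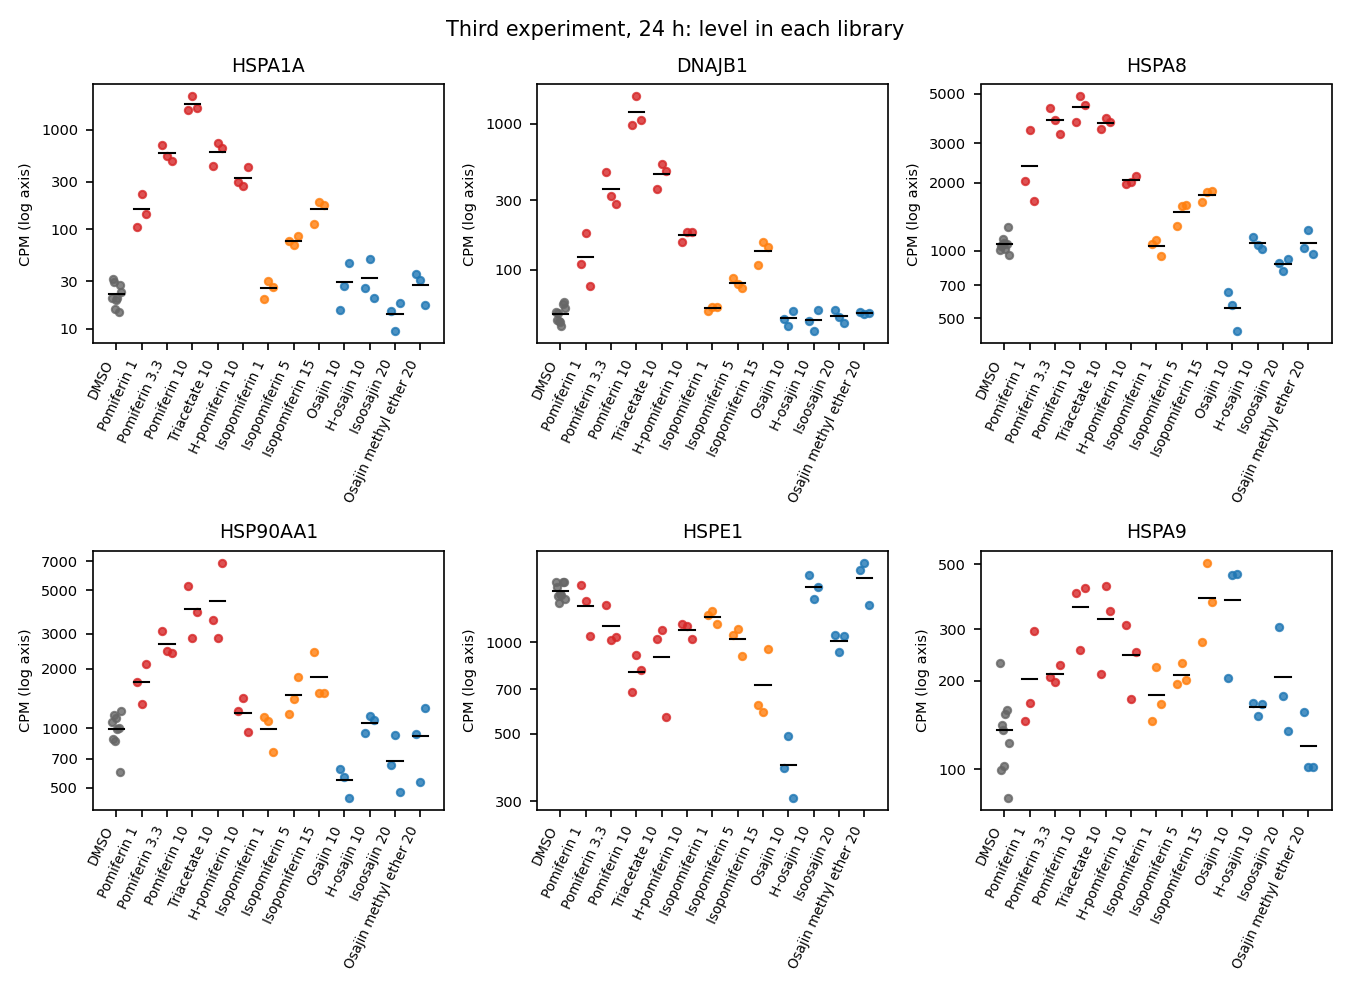
CPM (log axis) of 6 chaperone genes in each library of the third experiment, by compound and dose, with 1 point a library and a bar at the mean of each group. HSPA1A climbs with the dose of pomiferin from 106 to 227 CPM at 1 up to 1573 to 2161 CPM at 10, and the osajin libraries overlap DMSO.

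HSPA1A rose from the lowest dose of pomiferin. Pomiferin at 1 raised 12 members and lowered 1 (7.28% of all genes changed), at 3.3 it raised 21 and lowered 3 (18.8%), with inducible medians of 0.76 and 1.47. HSPA1A was at 106, 142 and 227 CPM at 1, at 490, 546 and 696 CPM at 3.3 and at the levels above at 10, with no overlap between neighbouring doses. Isopomiferin at 1 changed no member by edgeR (1.43%). At 5 it raised 7 and lowered 2 (6.82%), and at 15 it raised 11 and lowered 7 (20.0%). Under isopomiferin HSPA1A was at 20.0, 26.5 and 30.4 CPM at 1, within the DMSO range, at 70.1, 75.4 and 84.9 CPM at 5 and at 113, 173 and 188 CPM at 15 (2.81 ± 0.24). With HSPA1B added, the change at 15 was 1.26 (adjusted p = 0.0271). At 15 the inducible median was 0.61, the constitutive 0.10 and the mitochondrial -0.50, with 6, 4 and 1 members rising and none, 3 and 3 falling. HSPB8 (1.90), DNAJB2 (1.59), BAG3 (1.54), HSPA9 (1.50), DNAJB1 (1.43), HSP90AA1 (0.87) and HSPA8 (0.72) rose, while HSPE1 fell by 1.04, FKBP4 by 0.81, TRAP1 by 0.67 and HSPD1 by 0.33. Without isopomiferin replicate 1 the calls of HSPB8 (1.24), HSP90AA1 (0.58) and HSPD1 (-0.31) were lost. HSF1 passed the test at isopomiferin 15 (-1.1, adjusted p = 0.048) and did not without replicate 1 (-1.06) or 2 (-0.82), nor with DESeq2 (-1.07).

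The structural pairs could be compared at matched doses for 11 pairs of isoflavones over both experiments. All 111 differences between members that passed over all genes also passed with p-values adjusted over the pairs. Calls over all genes already need small p-values, so this second adjustment could hardly fail and adds no support. At 1, the only dose that the third experiment gave to both, pomiferin was above isopomiferin for 7 members and below for none (1.18% of all genes differed). These were HSPA1A (2.63, 95% interval 1.95 to 3.31), HSPB8, HSPA8 (1.19), DNAJB1, DNAJB4, HSPH1 and DNAJA1. H-Pomiferin at 10 raised 11 members and lowered 3 against DMSO (13.9%), with HSPA1A at 272, 295 and 424 CPM. H-Osajin at 10 raised 1 and lowered none (0.635%), with HSPA1A at 20.3, 25.7 and 50.4 CPM. The 1 was DNAJB6, at 106, 299 and 785 CPM against 38.9 to 213 in DMSO. H-Pomiferin was above H-Osajin for 5 members, HSPA1A (3.36), HSPB8, BAG3, DNAJB1 and HSPA8 (0.93), and below for 3, DNAJB6, FKBP4 and TRAP1 (6.1%). The pair with the named hydroxyl difference and the H-labelled pair both differed in HSPA1A, HSPA8, DNAJB1, BAG3 and HSPB8.

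Pomiferin was above H-Pomiferin for 16 members and below for 1 (6.42%), with HSPA1A differing by 2.44 (1.80 to 3.09). Osajin was above H-Osajin for 4 and below for 18 (17.1%). HSPA1A did not pass there (-0.16, interval -0.88 to 0.55), while HSPE1 was lower with osajin (-1.95), as was HSPA8 (-0.96). Pom Triacetate, in which hydroxyl groups of pomiferin carry acetyl groups, raised 20 members and lowered 2 (20.9%), with HSPA1A at 427, 650 and 726 CPM and an inducible median of 1.44. Pomiferin was above it for 4 members, HSPA1A (1.58), BAG3 (1.45), DNAJB1 (1.40) and HSPH1 (1.07), and below for TRAP1 (2.51%). HSPA8 did not pass between these compounds (0.23, interval -0.08 to 0.54). Isoosajin at 20 lowered 2 members and raised none (4.82%), CRYAB (-1.3) and HSPE1 (-0.55), with HSPA1A at 9.43, 15.1 and 18 CPM. Osajin 4 Methyl ether at 20, whose name gives a methylated hydroxyl, changed no member by edgeR (0.321%), with HSPA1A at 17.2, 30.7 and 35.5 CPM. Between these 2 compounds only HSPE1 differed (-0.69, 3.03%), lower with Isoosajin, and HSPA1A did not pass (-0.94, interval -1.68 to -0.20, adjusted p = 0.185).

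The 4 mitochondrial members did not move as a block. HSPA9 and TRAP1 are followed in every experiment so that all 4 are covered, a choice made after their values were seen. HSPA9, the HSP70 of the mitochondrial matrix, was at 79.7, 136 and 230 CPM in the lowest, median and highest DMSO library of the third experiment. It was at 255, 399 and 417 CPM with pomiferin at 10 (1.39 ± 0.25), at 204, 461 and 465 CPM with osajin at 10 (1.47 ± 0.25) and at 271, 372 and 507 CPM with isopomiferin at 15. All 3 treatments raised it, and between pomiferin and osajin the change was -0.08 (adjusted p = 0.94). TRAP1 went the other way, from 220 to 308 CPM in DMSO to 67.3, 81.5 and 94.5 CPM with pomiferin (-1.70 ± 0.17) and to 111, 128 and 155 CPM with osajin (-1.0). HSPE1 was at 1350, 1442 and 1582 CPM in DMSO, at 685, 810 and 908 CPM with pomiferin (-0.88 ± 0.15) and at 308, 385 and 491 CPM with osajin (-1.90 ± 0.16). Every pomiferin library lay below DMSO, and every osajin library below pomiferin. HSPD1, the barrel that HSPE1 closes, was at 407 to 532 CPM in DMSO, at 540, 645 and 734 CPM with pomiferin (0.46 ± 0.09) and at 241, 258 and 302 CPM with osajin (-0.80). HSPD1 (chromosome 2, 197486584 to 197500274, minus strand) and HSPE1 (197500379 to 197503449, plus strand) are head-to-head neighbours, and without the filter on low counts the HSPD1 calls with pomiferin (0.43) and isopomiferin (-0.33) were lost. Their counts moved in opposite directions with pomiferin and both fell with osajin. Both have near-identical processed copies elsewhere in the genome, to which reads could have been assigned, so the levels of these 2 genes carry that uncertainty.

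The TruSeq experiment followed pomiferin and isopomiferin earlier. At 10 µM and 6 h pomiferin raised 23 of the 43 members and lowered 3 (31.5% of all genes changed), and isopomiferin raised 13 and lowered none (25.4%). The inducible median was 0.42 and 0.15, the constitutive 0.04 and 0.03, and the all-gene median with pomiferin -0.01. Directly compared, pomiferin was above isopomiferin for 14 members and below for BAG1 (12.7%). Of these 14, 10 were inducible. HSPA1A was at 86.1, 90.0 and 96.1 CPM in DMSO, at 304.2, 304.6 and 308 CPM with pomiferin and at 153, 158 and 174 CPM with isopomiferin, 3 groups without overlap. HSPA1B differed by 0.94, HSPB8 by 0.58, CHORDC1 by 0.53 and DNAJB1 by 0.45. The BAG1 call was lost without pomiferin replicate 2 (-0.18) or isopomiferin replicate 1 (-0.20) or 3 (-0.22). Null at 10 µM raised 3 members and lowered none at 6 h (0.965%), HSPA8 (0.31), HSPH1 (0.27) and DNAJA1 (0.21), a count that went to 1 without Null replicate 1 or 2 or DMSO replicate 1 or 3. HSPH1 lost its call without any 1 of the 6 libraries (0.22 to 0.29). HSPA1A with Null was at 105, 113 and 113 CPM, above all 3 DMSO libraries, and did not pass (0.29 ± 0.09, adjusted p = 0.16). At 3 h Null changed no member (0.104%).

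At 3 µM and 6 h pomiferin raised 11 members and lowered none (5.55%), and isopomiferin raised 16 and lowered none (17.9%). HSPA1A was at 144, 169 and 170 CPM with pomiferin and at 177, 181 and 186 CPM with isopomiferin, so that the isopomiferin libraries lay higher, and the difference did not pass (-0.17, 95% interval -0.35 to 0.01). Pomiferin was above isopomiferin for HSF2 alone and below for 5 members, 6 of 43 in all and close to the 13.2% of all genes that differed: DNAJB5 (-0.52), HSPB1, CCT7, HSPA8 (-0.17) and STIP1. From 3 to 10 µM at 6 h pomiferin gained in 17 members and lost in none (17.6%), with HSPA1B differing by 0.87 and BAG3 by 0.53. The same step with isopomiferin gained in 2, DNAJB4 (0.43) and HSPA9 (0.19), and lost in none (5.06%). For HSPA1A it was -0.17 ± 0.09 (adjusted p = 0.32), with lower levels at 10 than at 3 µM in every isopomiferin library.

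**Figure D3:**
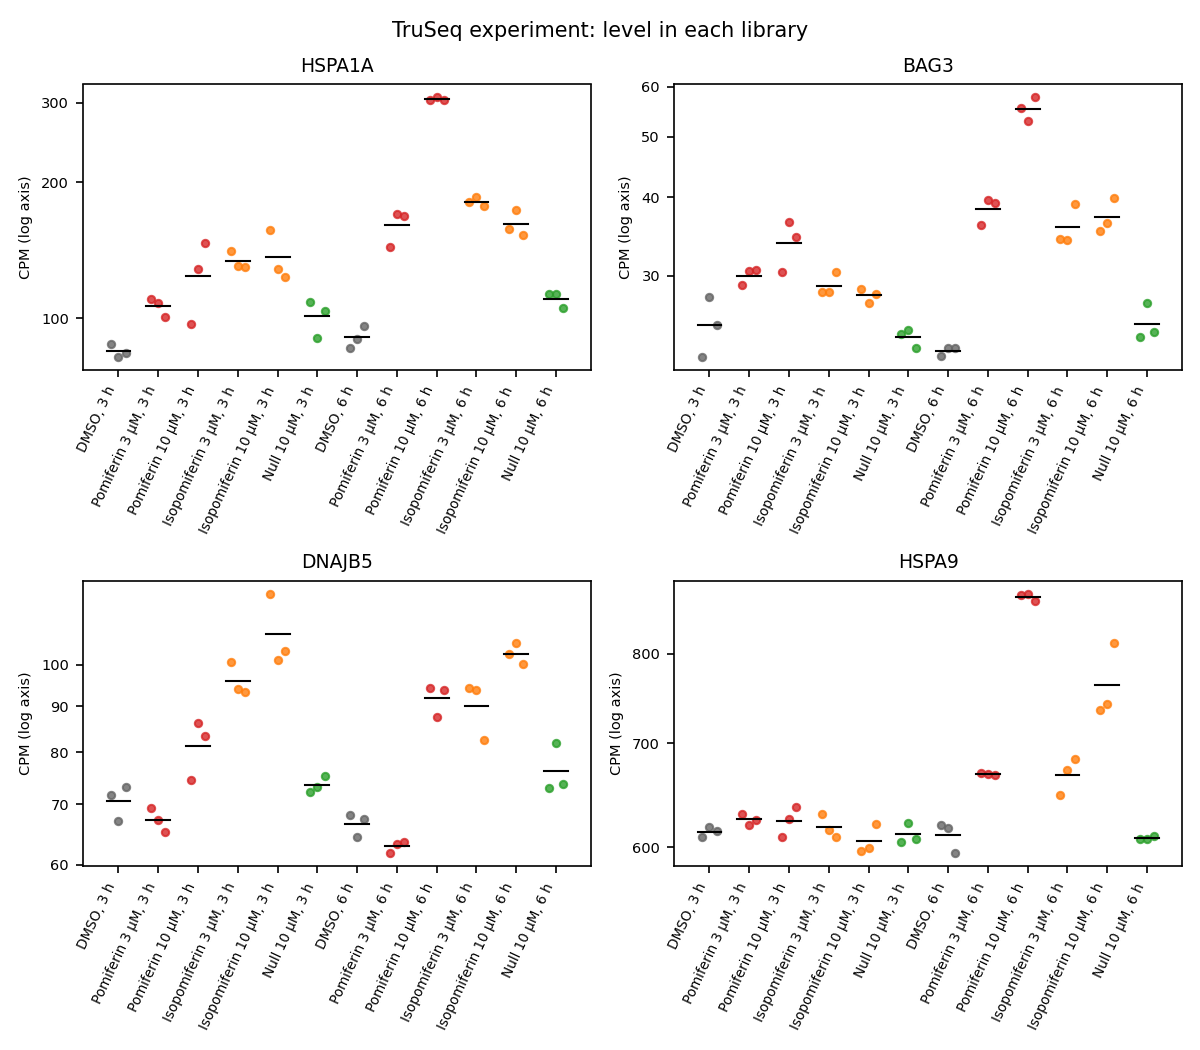
CPM of HSPA1A, BAG3, DNAJB5 and HSPA9 in each library of the TruSeq experiment, by compound, dose and time, with 1 point a library and a bar at the mean. HSPA1A is highest with pomiferin at 10 µM and 6 h (304.2 to 308 CPM), and DNAJB5 is raised by isopomiferin at both times.

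At 3 h the first members had moved. With 10 µM, pomiferin raised 5 and lowered 1 (4.19%): HSPA1A (0.56), HSPA1B (0.54), BAG3 (0.43), HSPA8 (0.27) and DNAJB1 (0.23) rose and HSPA4L fell by 0.34. With only the groups compared in the fit, 1 of these 6 calls was left. The HSPA4L call was lost in 5 of the 6 fits without 1 library (-0.30 to -0.36), and that of DNAJB1 without pomiferin replicate 2 (0.24) or 3 (0.16) or DMSO replicate 3 (0.17). Isopomiferin at 10 µM raised 5 and lowered none (4.19%), HSPA1A (0.70), DNAJB5 (0.62), HSPA1B (0.60), HSPA8 (0.40) and DNAJB1 (0.38). HSPA1A was at 82.3, 83.6 and 87.6 CPM in DMSO, at 97.0, 129 and 147 CPM with pomiferin and at 123, 129 and 157 CPM with isopomiferin, and both treated groups lay above DMSO and overlapped each other. Pomiferin differed from isopomiferin at 10 µM and 3 h in 2 members, higher in BAG3 (0.28) and lower in DNAJB5 (-0.41), where 2.43% of all genes differed, and the BAG3 call was lost with only the groups compared and without any library but pomiferin replicate 1 (0.22 to 0.30). At 3 µM and 3 h pomiferin changed no member by edgeR (0.339%), and isopomiferin raised 5 and lowered none (1.72%): HSPA8, DNAJB1, DNAJB5, HSPA1B and HSPA1A. The pair differed there in DNAJB5 alone (-0.51, 0.62%). DNAJB5, a J-domain protein, was at 67.0, 71.6 and 73.1 CPM in DMSO at 3 h, at 93.3, 94.1 and 101 CPM with isopomiferin at 3 µM and at 101, 104 and 120 CPM at 10 µM. With pomiferin at 3 µM and 6 h it was at 61.8, 63.3 and 63.7 CPM, below the DMSO libraries of that time (64.4, 67.4 and 68.1 CPM). It was the member on which isopomiferin stood above pomiferin in 3 of the 4 matched pairs.

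The effect of pomiferin at 10 µM was larger at 6 h than at 3 h for 18 members and smaller for none (11.7% of all genes), with HSPB8 growing by 0.80 and CHORDC1 by 0.59. That of isopomiferin grew for 3 members and shrank for none (5.51%), DNAJB4 (0.72), BAG3 (0.56) and HSPA9 (0.34). HSPA9 was at 596 to 637 CPM in all libraries at 3 h. At 6 h it was at 595, 617 and 620 CPM in DMSO, at 735, 743 and 813 CPM with isopomiferin at 10 µM and at 865, 873 and 874 CPM with pomiferin at 10 µM, a difference between the compounds of 0.19. HSPE1 with pomiferin at 10 µM and 6 h did not pass (-0.09 ± 0.06, adjusted p = 0.25).

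NSC255109 raised chaperones early and in a way that changed with time. In the second experiment at 6 h, 2.5 raised 16 of 41 tested members and lowered none, where 2.68% of all genes changed, and 0.85 raised 20 and lowered none (1.8%). DNAJA4 and HSPB8 were under the filter. At 2.5 the inducible median was 1.86, the constitutive 0.40 and the mitochondrial 0.51. HSPA1A was at 29.6, 40.4 and 52.2 CPM in the lowest, median and highest of 6 Control libraries and at 1397, 1849 and 2025 CPM with 2.5 (5.47 ± 0.22). HSPA1B rose by 4.61 ± 0.23 and DNAJB1 by 2.88 ± 0.15, from 105 to 172 CPM to 993, 1090 and 1095 CPM. HSPH1 rose by 2.13, HSPB1 by 2.03, HSP90AA1 by 2.00, BAG3 by 1.74 and HSPA8 by 1.72. The groups did not overlap for any of these 8, but how many of all genes separate in this way was not counted. Without NSC255109 replicate 2 the BAG3 change was 1.36 and lost its call. HSPD1 rose by 1.02 and HSP90AB1 by 0.94. Isopomiferin at 10 raised 1 member and lowered none at the same time (1.3%), HSPA9 (0.90 ± 0.22), at 309, 606 and 762 CPM against 258 to 387. Without isopomiferin replicate 2 (0.60) or 3 (0.84) it lost its call. Its HSPA1A levels of 31.7, 53.6 and 61.5 CPM overlapped Control. Isopomiferin at 3.3 changed no member at 6 h by edgeR (0.524%).

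At 24 h in the same experiment, with NSC255109 at 2.5, 14 members rose and 2 fell (18.4%), with 0.85, 16 rose and 1 fell (15.8%), and with isopomiferin at 10, 10 rose and 5 fell (18.3%). HSPA1A was at 19.6, 34.3 and 37.7 CPM in Control, at 66.9, 76.3 and 106 CPM with NSC255109 at 2.5 (1.41 ± 0.26) and at 317, 525 and 589 CPM with isopomiferin at 10 (3.92 ± 0.21). Doses of these compounds differ, so the values stand side by side. The effect of NSC255109 at 2.5 was smaller at 24 h than at 6 h for 6 members and larger for none (6.78%), among them HSPA1A (-4.04) and HSPA1B (-3.67), and HSPA9 (-1.65). That of isopomiferin at 10 was larger for 7 and smaller for 1 (4.62%), among them HSPA1A (3.61), BAG3 (3.29) and DNAJB1 (2.33), and TRAP1 (-0.79).

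HSPA8 did not follow HSPA1A with NSC255109. It was at 954, 996 and 1046 CPM in Control and at 3117, 3191 and 3555 CPM with 2.5 at 6 h, then at 878, 989 and 1108 CPM in Control and at 4041, 4077 and 4710 CPM at 24 h (2.11 ± 0.12). The change between the times did not pass (0.41 ± 0.15, adjusted p = 0.09). HSP90AB1 was at 2942, 3624 and 3974 CPM at 24 h against 1472, 1719 and 1914 in Control (1.04 ± 0.11), HSP90AA1 rose by 1.53, HSPB1 by 1.56 and HSPD1 by 0.68. In this group 6 of 14 inducible members rose and 1 fell, and 7 constitutive members rose and none fell. With isopomiferin at 10, HSP90AB1 was at 1506, 1682 and 2068 CPM, overlapping Control, and HSPA8 at 2044, 2518 and 2763 CPM (1.30 ± 0.12). BAG3, DNAJB1 and BAG2 rose by 2.51, 2.1 and 1.41.

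**Figure D4:**
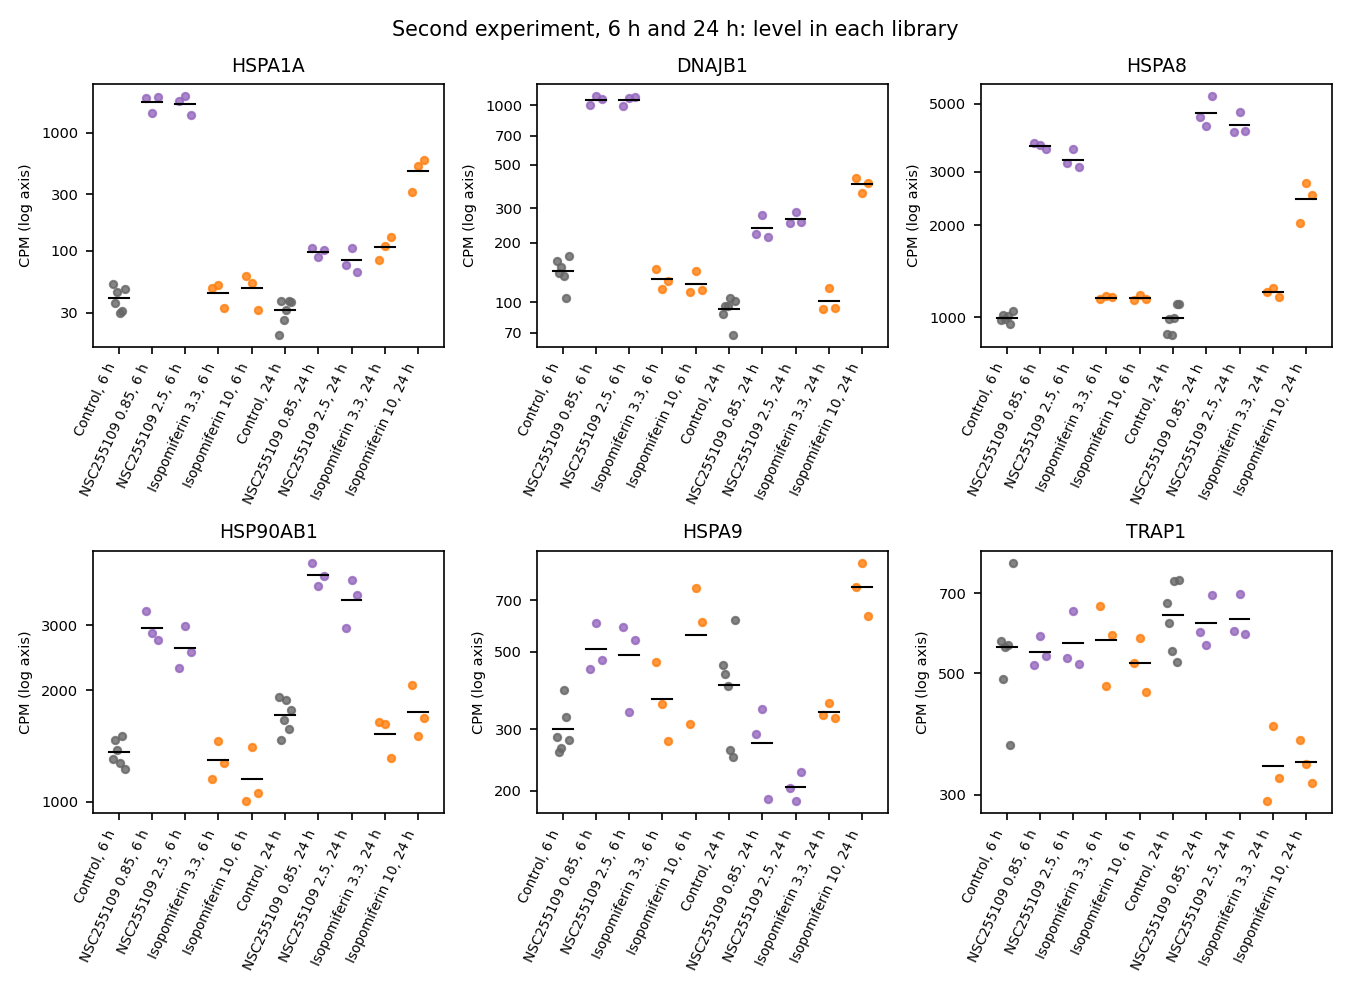
CPM of HSPA1A, DNAJB1, HSPA8, HSP90AB1, HSPA9 and TRAP1 in each library of the second experiment at 6 and 24 h, for Control, NSC255109 and isopomiferin at both doses, with 1 point a library and a bar at the mean. HSPA1A with NSC255109 at 2.5 is at 1397 to 2025 CPM at 6 h and at 66.9 to 106 CPM at 24 h, and HSPA8 stays at 4041 CPM or more at 24 h.

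The mitochondrial members again went apart. HSPA9 at 24 h was at 250, 415 and 616 CPM in Control, at 632, 764 and 896 CPM with isopomiferin at 10 (0.92 ± 0.24) and at 187, 204 and 226 CPM with NSC255109 at 2.5 (-0.97 ± 0.28), a fall that lost its call without NSC255109 replicate 2 (-0.90). TRAP1 was at 524, 644 and 742 CPM in Control, at 315, 341 and 377 CPM with isopomiferin at 10 (-0.89 ± 0.18) and at 591, 597 and 698 CPM with NSC255109, within the Control range. HSPE1 was at 552, 758 and 848 CPM in Control and at 367, 405 and 462 CPM with isopomiferin (-0.83 ± 0.23), a call lost without isopomiferin replicate 1 (-0.74). CRYAB fell by 1.37 with NSC255109 at 2.5, and by 0.80 with its call lost without replicate 2. Isopomiferin at 3.3 raised 3 members and lowered 1 at 24 h (3.09%): HSPA1A (1.75), BAG2 (1.31), HSF1 (2.94, on 0 to 3 counts a Control library) and TRAP1 (-0.91). In these libraries the neuroblast markers summed to 4554 to 6439 CPM in Control, 2718 to 3226 with isopomiferin at 10 and 7569 to 8457 with NSC255109 at 2.5. Markers of other cell types summed to 984.4 to 1247, 517.9 to 746.7 and 914.4 to 997.9 CPM. Their part in the chaperone values was not tested.

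In the first experiment, fitted with plate as a block, NSC255109 at 7.5 raised 14 of 41 tested members and lowered 2 (11.3% of all genes changed), with medians of 0.89 for inducible and 0.19 for constitutive members. HSPA8 (1.91 ± 0.21), HSPB1 (1.77), HSPA1A (1.76 ± 0.39), HSP90AA1 (1.75), DNAJB4 (1.60), DNAJB6 (1.30), HSPA1B (1.28) and HSP90AB1 (1.24) rose, and CRYAB fell by 2.06 and BAG1 by 1.40. Isopomiferin at 15 raised 10 and lowered 4 (12.7%), with medians of 0.63 and 0.04. HSPA1A (3.40 ± 0.29), HSPA1B (3.19), DNAJB4 (2.54), BAG3 (2.50), DNAJB5 (2.2) and DNAJB1 (1.80) rose, HSPA8 rose by 1.08, and CRYAB fell by 1.66, TRAP1 by 0.96, HSPE1 by 0.85 and CCT5 by 0.54. BAG3 (0.42), HSPH1 (0.72), HSPE1 (-0.37) and HSF1 (-0.92) did not pass with NSC255109. With isopomiferin HSPH1 (0.38), HSP90AB1 (0.36), HSPD1 (-0.44) and HSF1 (0.98) did not. The changes given for these members are from the fit without libraries under 500000 counts, where none of them passed either. HSPA1A was at 3.55 to 14.2 CPM over the 8 DMSO libraries, and every library of both treatments lay above them. Plates differed in some members: HSPA8 in DMSO was at 383 to 579 CPM on plate 1 and at 118 to 141 CPM on plate 2, with 4 libraries each. In NSC255109 it was at 1759 CPM on plate 1 and 452 on plate 2, and in isopomiferin at 1131 and 214, each above the DMSO libraries of its plate. HSPA1A on plates 1 and 2 was at 24.9 and 24.0 CPM with NSC255109 and at 129 and 38.8 with isopomiferin, against 6.91 to 14.2 and 3.55 to 5.48 in DMSO. Without the block 6 members passed with NSC255109 and 8 with isopomiferin. DESeq2's size factors shifted the isopomiferin changes by 0.134, with 12 members up and 2 down, and the calls of HSPE1 (-0.71) and CCT5 (-0.40) were lost. CCT5 was also lost without the filter on low counts (-0.50) and with only the groups compared (-0.51). With NSC255109 the HSPA1B call was lost with DESeq2 (1.32), the older quasi-likelihood method (1.27), no filter (1.28) and only the groups compared (1.27), and those of BAG1 (-1.403) and HSPD1 (0.57) with no filter. With only these groups in the fit, leaving out 1 treated library left 10 or 5 calls of the 16 with NSC255109 and 9 or 8 of the 14 with isopomiferin.

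Over every treatment of the series, few raised the inducible members above the constitutive ones. The median log2(CPM + 1) change of inducible members minus that of constitutive members was taken in each library. It lay above all control libraries in every library of a treatment for 4 of 10 TruSeq treatments, 5 of 29 in the third experiment, 3 of 30 at 6 h and 4 of 30 at 24 h in the second, and 10 of 90 in the first. In the third it was 1.39 ± 0.24 (SD, n = 3) with pomiferin at 10, 1.17 ± 0.31 with Pom Triacetate, 1.1 ± 0.26 with pomiferin at 3.3 and 0.54 ± 0.05 with CX-4945 at 10, a casein kinase 2 inhibitor, against -0.28 to 0.43 in DMSO. At 6 h in the second it was 1.43 ± 0.21 with NSC255109 at 2.5 and 0.80 ± 0.21 with cloxyquin at 5, an 8-hydroxyquinoline that binds metal ions. At 24 h it was 0.71 ± 0.16 with isopomiferin at 10. In the first experiment the highest mean was that of disulfiram at 0.15 (0.84 ± 0.05, n = 2), the aldehyde dehydrogenase inhibitor, whose HSPA1A stood at 138 and 389 CPM. The lowest was that of artenimol at 15 (-0.61), below all DMSO libraries as were 4 other treatments of that experiment.

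**Figure D5:**
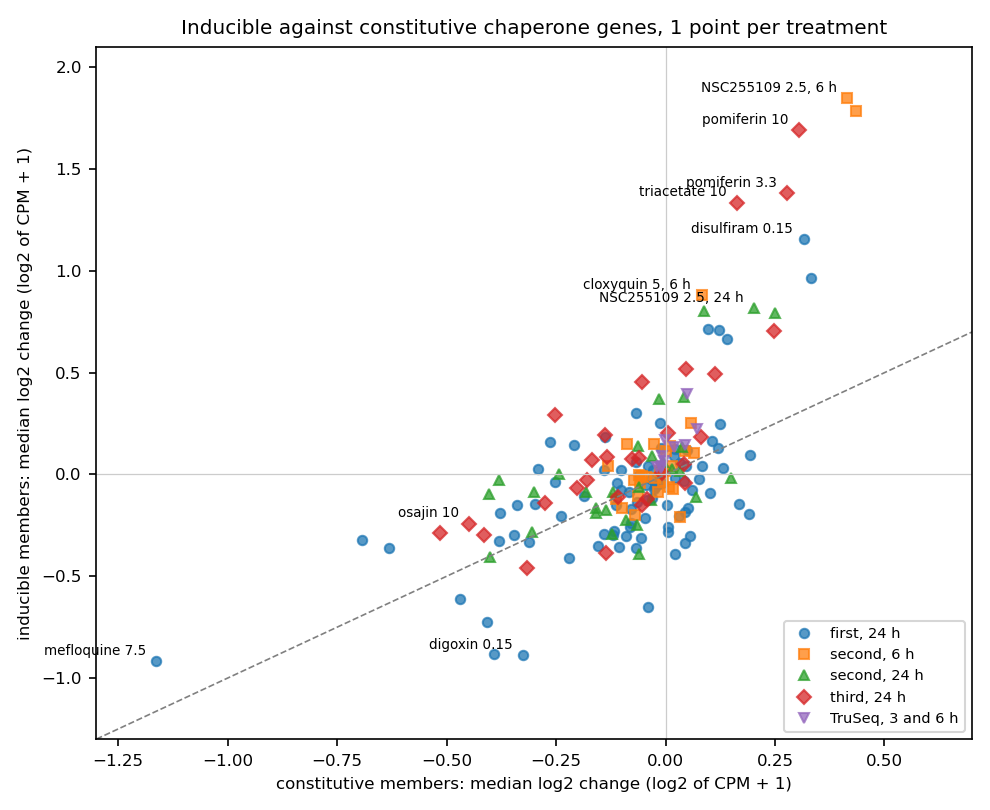
Median log2 change of inducible members (vertical) against that of constitutive members (horizontal), both from log2(CPM + 1) against the mean of the controls, with 1 point a treatment (mean of its libraries), a marker for each experiment and a dashed line where both are equal. NSC255109 at 2.5 and 6 h and pomiferin at 10 lie highest above the line, by 1.43 and 1.39.

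Single members had a wide range over treatments. HSPA1A changed by more than 1 on the log2 scale upward in 13 of 90 treatments of the first experiment, 7 of 29 of the third, 3 of 30 and 5 of 30 of the second at 6 and 24 h and 1 of 10 of the TruSeq experiment. Its lowest changes were -3.60 with artenimol in the first, -1.84 with podofilox at 0.33 in the second at 24 h and -1.18 with NVP-BEZ-235 in the third. These lowest changes were not tested. That of artenimol rests on few counts, in 2 libraries of 671143 and 1274687 counts. HSPA1A there was at only 6.91 to 14.2 CPM in DMSO on plate 1 and at 3.55 to 5.48 CPM on plate 2. HSPA8 was highest with NSC255109 in the first and second experiments and with pomiferin at 10 in the third. HSPE1 was lowest with osajin and TRAP1 with pomiferin at 10 among the 29 treatments of the third.

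Other genes of the same pathways were read from further lists. Of 9 genes linked to HSF1 outside the chaperones, 6 rose and none fell with pomiferin at 10 in the third experiment (median 1.39), where 31.5% of all genes changed. These included ZFAND2A (4.44), which binds the proteasome, and DEDD2 (3.33). With osajin, where 25.8% changed, 4 rose and 2 fell (median 0.09), with ZFAND2A at 1.99 and RGS2, a regulator of G protein signalling, at -2.26, and pomiferin was above osajin for 6 and below for none (6.76% of all genes differed). Of the 8 tested in the second experiment, 4 rose and none fell with NSC255109 at 2.5 and 6 h (2.68% of all genes), and 4 rose and none fell with isopomiferin at 10 and 24 h (18.3%). All 6 ER chaperones tested rose with pomiferin at 10 (median 2.13) and 5 of 6 with osajin (median 1.67), and only HSPA5, the HSP70 of the ER, differed between them (1.24). NSC255109 at 2.5 raised 5 of the 6 at 6 h (median 2.16), and at 24 h none rose and 2 fell, HSPA5 (-1.1) and CALR (-0.60), the lectin chaperone. At 24 h 18.4% of all genes changed. Isopomiferin at 10 raised 4 at 6 h (1.3%) and 6 at 24 h. Of 20 further chaperone genes tested, pomiferin at 10 raised 1 and lowered 4, which does not stand out from the 31.5% of all genes. Osajin raised 2 and lowered 7, against 25.8%. LONP1, a protease of the mitochondrial matrix, rose with both (1.26 and 1.65), and FKBP5, a co-chaperone of the glucocorticoid receptor, fell with both (-1.46 and -1.52).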

How the data were processed

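The values analysed are whole-number counts per gene that the authors deposited in 4 tables, 1 for each experiment (PLATE-seq for the first 3, TruSeq RNA-seq for the last, both of poly-A RNA, per the labels). STAR and GRCh38 are named per the submitters' processing notes, with no version, and the counting settings are not given in the sources used here. Columns were matched to samples by title. Counts were tested with edgeR 4.0.16 (quasi-likelihood, TMM, filterByExpr with a minimum count of 10) in R 4.3.3, with all groups of an experiment and time in 1 fit. In the first experiment plate, inferred from the ending R1 or R2 of the titles, was a block. Libraries with the same ending deviate together there (median r = 0.275). P-values were adjusted over all genes, 15329 in the TruSeq, 15596 in the third and 13438 in the first experiment. Changes between the times of the second experiment were tested in 1 fit over both. The fitting steps were also run on simulated counts with known changes, in fewer groups than the real fits and with the spread these gave. That checks the code and not the calls reported here. Promoters come from RefSeq and the HSPA1A and HSPA1B transcripts from the reference annotation.

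The members and lists were chosen with earlier results of these data known. The genes set to be named are HSPA1A, HSPA1B, DNAJB1, BAG3, HSPH1, HSPA8, HSP90AA1, HSP90AB1, HSPD1, HSPE1 and HSF1, but not each of them is named in every comparison. Added to these, for each of 19 main comparisons, are up to 6 members with the strongest increase and up to 4 with the strongest decrease past the threshold, with at most 3 of each further list. Where 5 or fewer members passed, all are named. Other names were chosen after their values were seen. Alternatives were DESeq2 1.42.0, its size factors, no filter, the older quasi-likelihood method, only the groups compared, HSPA1A and HSPA1B summed and a replicate block. Single libraries were left out of the treated groups compared and of the TruSeq DMSO groups. Single DMSO or Control libraries of the other experiments were not left out. The TruSeq libraries labelled MOCK were not used.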

Additional observations from a re-analysis of the deposited data

Results flagged for a closer look

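The effect of time was examined for the 11 members that were set to be named, as the difference between the effects against the control at each time (edgeR, adjusted over all genes). In the TruSeq experiment the effect of pomiferin at 10 µM was larger at 6 h than at 3 h by 1.193 on the log2 scale for HSPA1A (adjusted p = 7.06e-08), by 1.113 for HSPA1B, by 0.8523 for BAG3, by 0.6986 for HSPA8, by 0.4291 for HSPH1, by 0.4081 for DNAJB1, by 0.2427 for HSP90AA1 and by 0.1211 for HSP90AB1 (adjusted p = 0.0339, the largest of these 8). That of isopomiferin at 10 µM was larger by 0.5589 for BAG3.

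In the second experiment the effect of NSC255109 at 2.5 changed from 6 to 24 h by -4.037 for HSPA1A (adjusted p = 1.05e-17), by -3.665 for HSPA1B, by -1.341 for DNAJB1 and by -1.143 for HSPH1. For isopomiferin at 10 it changed by 3.609 for HSPA1A (adjusted p = 1.29e-13), by 3.292 for BAG3, by 2.429 for HSPA1B, by 2.326 for DNAJB1, by 1.092 for HSPA8 and by 0.9492 for HSP90AA1. The 2 compounds moved in opposite directions in HSPA1A, HSPA1B and DNAJB1, at doses that differ.

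Among the 9 DMSO libraries of the third experiment 1 stood apart in HSPA1B, at 190.1 CPM with the next at 98.25 CPM. It was 1 of 55 groups of values examined, and chance marks about 1 in 20. No fit of the comparisons with DMSO was repeated without this library.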

How the results depend on the processing

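The count of members past the threshold stayed within 1.5 times its value in all 19 main comparisons with DESeq2, with DESeq2's size factors, without a filter on low counts, with the older quasi-likelihood method and with HSPA1A and HSPA1B summed, and in the 17 outside the first experiment with a replicate block. In the first experiment it did so without libraries under 500000 counts and with the wells without DMSO added to the control, but with no replicate block 6 members passed for NSC255109 at 7.5 (16 with the plate block) and 8 for isopomiferin at 15 (14 with it). With only the groups compared in the fit, the count for pomiferin at 10 µM and 3 h in the TruSeq experiment was 1 in place of 6, and that for pomiferin against isopomiferin at 10 µM and 3 h was 1 in place of 2. Leaving out 1 library gave 1 to 3 members for the Null compound at 6 h (3 with all libraries), 1 to 3 for pomiferin against isopomiferin at 10 µM and 3 h, and 0 to 2 for isopomiferin at 10 and 6 h in the second experiment (1 with all). CHORDC1 with osajin in the third experiment ran from -0.3979 to 1.65 when 1 osajin library was left out, and reversed without replicate 2. In the first experiment the fit of all groups was not repeated without single libraries. With only the groups compared, an alternative chosen after seeing the data, leaving out replicate 1 or 2 gave 10 and 5 members for NSC255109 at 7.5 and 9 and 8 for isopomiferin at 15. DESeq2's size factors shifted the members' changes by 0.134 for isopomiferin at 15 in the first experiment, and by 0.060 or less in the other comparisons.

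Replicate numbers of the other experiments do not pair the samples: same-numbered libraries of different groups had a median correlation of -0.00782 in the TruSeq and 0.00203 in the third experiment. With a replicate block the count for pomiferin at 10 in the third experiment was 27, as without it, and for isopomiferin at 15 it was 16 in place of 18. Of single named members, 94 of 1156 fits without 1 library lost a call and 6 gained one. Depth limits members of few counts most: HSF1 had 0 to 3 counts in each Control library of the second experiment at 24 h, and HSPB8 at most 0.986 CPM in DMSO of the third.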
